A study of Sus scrofa with 10 samples.

Results

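The proteasome is the large protease of the cytosol and nucleus that degrades proteins tagged with ubiquitin. Rows of proteasome genes were taken from a table of hypothalamic gene levels of pigs as all rows whose gene name begins with PSMA to PSMG and a number, without the immunoproteasome subunits PSMB8 and PSMB9, and with a valid estimate in both groups. This gave 43 of the 25009 rows in the table. Of these, 15 rows belong to the 20S core, 16 to the 19S cap and 11 to assembly chaperones, activators and an inhibitor. The remaining row, PSMC3IP, fits the name pattern but encodes a partner protein of meiotic recombination and is not a proteasome subunit.

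The animals were 10 Iberian x Landrace backcross pigs, and the tissue was the hypothalamus in all of them. The labels give 5 animals the phenotype of high growth and fatness, here called high-growth pigs, and the other 5 that of low growth and fatness, here called low-growth pigs. Paired-end Illumina libraries were sequenced. The deposited table holds a single FPKM value for each gene and group (fragments scaled for transcript length and library depth), and the bounds of its confidence interval. These are the authors' values for the groups. How the 5 animals of a group were combined is not given in the sources used here. No difference below therefore has a replicate check, and none carries a p-value. Age, sex and the allocation of animals to lanes were not given in the sources used here either.

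The 20S core is a barrel of 2 outer alpha rings, which form the gate, and 2 inner beta rings, which hold the proteolytic sites. The 19S cap binds the ends of the barrel. Its base contains a ring of ATPases that unfold the substrate, and its lid removes the ubiquitin chain. Neurons depend on this pathway for turnover of synaptic proteins and for clearance of damaged ones, and all cells of the brain express its subunits.

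The tissue label was checked against marker genes. All 12 listed hypothalamic peptide genes, among them POMC, AVP and OXT, had a row with an estimate, and their summed level was 1097 FPKM in high-growth pigs and 821 FPKM in low-growth pigs. Their direction was mixed, with 4 of 13 rows, those of POMC, AGRP, NPY and CRH, lower in high-growth pigs. Genes of several other cell types were lower throughout. The 9 tested rows of fibroblast and mural cell markers all had lower values in high-growth pigs (summed level 59.7 against 194 FPKM), as did the 7 rows of oligodendrocyte markers (2803 against 4338 FPKM) and the 8 rows of microglial markers (305 against 431 FPKM). All 4 tested rows of red blood cell markers were lower as well (160 against 393 FPKM). So were all 4 tested rows of anterior pituitary markers (302 against 639 FPKM summed over 6 rows). Among them PRL was at 279 FPKM (174 to 384) against 570 FPKM (102 to 1039). Whether the samples held pituitary tissue was not tested. Of all tested rows, 67.7% were lower in high-growth pigs, and of those of at least 20 FPKM 82.3%. No marker in these lists was at 0 in both groups. In a bulk sample, fewer cells of a type and less RNA per cell cannot be told apart, and the part of these markers in the proteasome values was not tested.

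Of the 43 rows, 39 passed the filter on low values, a mean over the groups of 1 FPKM or more, and these stand for 37 gene symbols. Of the 4 others, PSMA8, the alpha subunit known from testis, and PSMB11, the beta subunit of thymic epithelium, were listed at 0 in both groups. A further row named PSMA5 on chromosome 14, with a locus of 765 bases, was also listed at 0, beside the row of PSMA5 on chromosome 4 that carried the signal. PSMC3IP was at 0.295 FPKM in high-growth pigs and 0.258 FPKM in low-growth pigs. The symbols PSMB2, PSMB5, PSMB10, PSMC4 and PSMG2 were not matched to a row and were not analysed here, so the chymotrypsin-like catalytic subunit PSMB5 is not covered.

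Differences are given as log2(FPKM + 1) in high-growth minus low-growth pigs, a scale on which a negative value means less in high-growth pigs and on which the change of low genes is understated, and ratios are FPKM of low-growth pigs over high-growth pigs. Of the 39 tested rows, 34 had the higher value in low-growth pigs and 5 in high-growth pigs. The 34 became 30 after median-of-ratios scaling, which removes a shift common to all rows. They became 22 after quantile normalization, which gives both groups the same distribution of values and so also removes a shift that depends on level. Over all 15281 tested rows of the table, 67.7% were higher in low-growth pigs. The median difference of the 39 rows was -0.20, against -0.10 for all tested rows. The proteasome rows lie at higher levels than most genes, with a median of 34.4 FPKM in high-growth pigs against 7.08 FPKM for all tested rows. Among the 3418 rows whose mean reached 20 FPKM, 82.3% were higher in low-growth pigs and the median difference was -0.19. Of the 31 proteasome rows that reached 20 FPKM, 29 were higher in low-growth pigs, and their median difference was -0.21. At this level the median of the proteasome rows was therefore close to that of all rows, while the share of rows with this direction was higher.

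All proteasome differences were small. The ratio ran from 0.845 for PSME4 to 1.27 for PSME2, and 0 of 39 rows reached a ratio of 1.5 in either direction, a size that 9.22% of tested rows reached. In 2 rows, PSMC3 and PSME2, the value of low-growth pigs exceeded that of high-growth pigs by at least 25%, which 20.6% of all tested rows did. The deposited intervals of the groups overlapped for every one of the 39 rows, and 0.462% of all tested rows had separate intervals. The precision of the values limits what could be seen. The median half-width of a proteasome interval was 29.5% of the value in high-growth pigs and 35.2% in low-growth pigs, so that a ratio of 1.99 would have been needed for a typical proteasome row to show separate intervals.

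**Figure D1:**
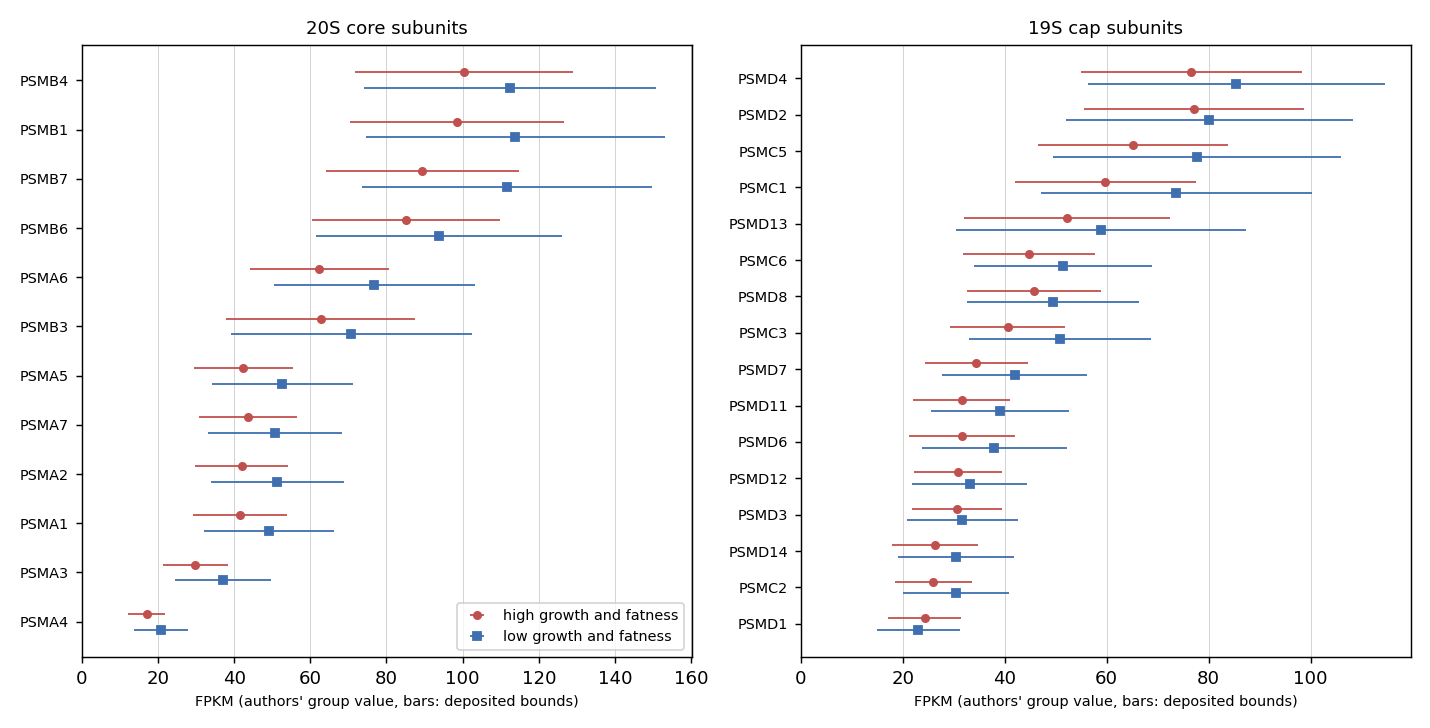
FPKM of the 20S core subunits (left) and the 19S cap subunits (right) with a mean of at least 1 FPKM, for high-growth pigs (circles) and low-growth pigs (squares). Bars are the deposited bounds, which overlap between the groups for each subunit, and PSMA4 is the lowest and PSMB4 the highest of the core.

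In the 20S core, all 12 tested subunits had the lower value in high-growth pigs, with a median difference of -0.26 and a range from -0.32 to -0.14. Of all rows of at least 20 FPKM, a level that every core subunit but PSMA4 reached by its mean, 82.3% had the lower value there. The median difference of those rows was -0.19. All 12 core subunits kept this direction after median-of-ratios scaling. After quantile normalization 8 did, and PSMB1, PSMB3, PSMB4 and PSMB6 turned to the other side. The alpha ring was the more even of the rings. Its 7 subunits differed by -0.31 to -0.22, with a median of -0.28. PSMA6 had the highest level of the alpha ring, at 62.4 FPKM (deposited bounds 44.1 to 80.6) in high-growth pigs and 76.8 FPKM (50.3 to 103) in low-growth pigs. PSMA3 had the largest difference of the ring, -0.31, at 29.8 FPKM (21.3 to 38.3) against 37.2 FPKM (24.6 to 49.8). In both subunits the value of each group lay inside the interval of the other.

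PSMA4, whose tail is central to the closed gate, was the lowest subunit of the core, at 17.0 FPKM (12.03 to 21.9) in high-growth pigs and 20.8 FPKM (13.8 to 27.9) in low-growth pigs. Its intervals were separate from those of 10 of the 11 other core subunits in both groups. The remaining 4 alpha subunits formed a narrow band. PSMA1 was at 41.4 against 49.2 FPKM and PSMA2 at 41.9 against 51.3 FPKM. PSMA5 was at 42.4 against 52.6 FPKM, and PSMA7 at 43.6 against 50.7 FPKM, the smallest difference of the alpha ring (-0.22). The intervals of these 4 subunits overlapped one another within each group, so their order is not resolved.

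The beta ring had the higher levels, with a median of 89.4 FPKM in high-growth pigs and 112 FPKM in low-growth pigs, against 41.9 and 50.7 FPKM for the alpha ring. Of its catalytic subunits, PSMB6, which carries the caspase-like site, was at 85.2 FPKM (60.5 to 110) in high-growth pigs and 93.8 FPKM (61.6 to 126) in low-growth pigs, a difference of -0.14 and the smallest of the core. PSMB7, which carries the trypsin-like site, stood at 89.4 FPKM (64.0 to 115) against 112 FPKM (73.6 to 150), a difference of -0.32 and the largest of the core. In the unscaled values the smallest and the largest difference of the core thus both came from catalytic subunits. After quantile normalization this did not hold, with PSMB7 at -0.085 and PSMA4 at -0.15. Both pairs of intervals overlapped, and the difference between these genes was not tested.

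The structural beta subunits lay between them. PSMB4 was the highest of the core by its mean, with 100 FPKM (71.6 to 129) against 112 FPKM (74.0 to 151). PSMB1 was at 98.5 FPKM (70.3 to 127) in high-growth pigs and 114 FPKM (74.5 to 153) in low-growth pigs, so that PSMB4 led in high-growth pigs and PSMB1 in low-growth pigs. PSMB3 had the lowest level of the beta ring, at 62.7 FPKM (38.0 to 87.5) against 70.8 FPKM (39.2 to 102). The rows of PSMB1 and PSMB3 lie on unplaced scaffolds. The median difference of the beta ring was -0.17, and it turned to 0.0045 after quantile normalization, whereas that of the alpha ring remained at -0.11.

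In the 19S cap, 15 of 16 subunits had the lower value in high-growth pigs, with a median difference of -0.20. All cap subunits had a mean of at least 20 FPKM. Of all rows at that level, 82.3% had the lower value in high-growth pigs, and their median difference of -0.19 was close to that of the cap. The cap count of 15 was 12 after median-of-ratios scaling and 9 after quantile normalization. The ATPases of the base had the most uniform values of the cap. All 5 matched ATPases were lower in high-growth pigs, by -0.32 to -0.20 with a median of -0.25, which stayed negative at -0.14 and -0.073 under the respective scalings. PSMC3 was at 40.6 FPKM (29.3 to 51.9) in high-growth pigs and 50.9 FPKM (33.04 to 68.7) in low-growth pigs, a ratio of 1.253. PSMC5 had the highest level of the ATPases, at 65.2 against 77.7 FPKM, and PSMC1 followed at 59.7 against 73.7 FPKM. PSMC6 was at 44.8 against 51.5 FPKM, and PSMC2 was the lowest at 26.0 against 30.5 FPKM. The ATPases form a ring with a single copy of each, and their mRNA levels still spanned more than the difference between the groups for any of them.

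The other base subunits did not follow the ATPases. PSMD1 and PSMD2 are the large scaffold proteins of the base, and PSMD4 is a ubiquitin receptor. PSMD1 was the lowest subunit of the cap and the one with the higher value in high-growth pigs, at 24.3 FPKM (17.1 to 31.4) against 23.0 FPKM (14.9 to 31.2), a difference of 0.07. PSMD2 was at 77.0 against 80.1 FPKM, a difference of -0.06. PSMD4, the highest of the 16 cap subunits by its mean, stood at 76.6 FPKM (54.9 to 98.3) against 85.5 FPKM (56.3 to 115). The median of these 3 subunits was -0.06, above the difference of each of the 5 ATPases, and the same scalings turned it to 0.053 and 0.13. This contrast was seen in the data and not tested.

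All 8 tested lid subunits were lower in high-growth pigs, as were 82.3% of all rows of at least 20 FPKM. The median of the lid was -0.19, close to the -0.19 of those rows. Under the first of these scalings PSMD3 and PSMD12 were higher in high-growth pigs, and under quantile normalization PSMD8 and PSMD13 were as well. Of the 8, PSMD11, a scaffold subunit of the lid, had the largest difference, -0.30. It was at 31.6 FPKM (22.1 to 41.1) in high-growth pigs and 39.0 FPKM (25.5 to 52.6) in low-growth pigs. PSMD14, the deubiquitinating enzyme of the lid, had the lowest level, at 26.3 FPKM (17.9 to 34.7) against 30.4 FPKM (19.03 to 41.8). PSMD13 had the highest of the 8, at 52.2 FPKM (32.0 to 72.5) against 59.0 FPKM (30.5 to 87.4). Relative to its value, the widest interval of the cap belonged to PSMD13, whose locus in the table also covers 10 other gene rows, so its reads may be shared with neighbours and its value is uncertain.

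The remaining lid subunits were intermediate. PSMD7, the inactive partner of PSMD14, was at 34.4 against 42.0 FPKM, and PSMD6 at 31.6 against 38.0 FPKM. PSMD8 was at 45.8 against 49.5 FPKM. The smallest differences of the lid were those of PSMD12, at 30.9 against 33.1 FPKM, and PSMD3, at 30.7 against 31.7 FPKM. Like the row of PSMB1, that of PSMD7 lies on an unplaced scaffold. The loci of PSMC1, PSMC5 and PSMD14 overlap other gene rows, and their values are uncertain to that extent.

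**Figure D2:**
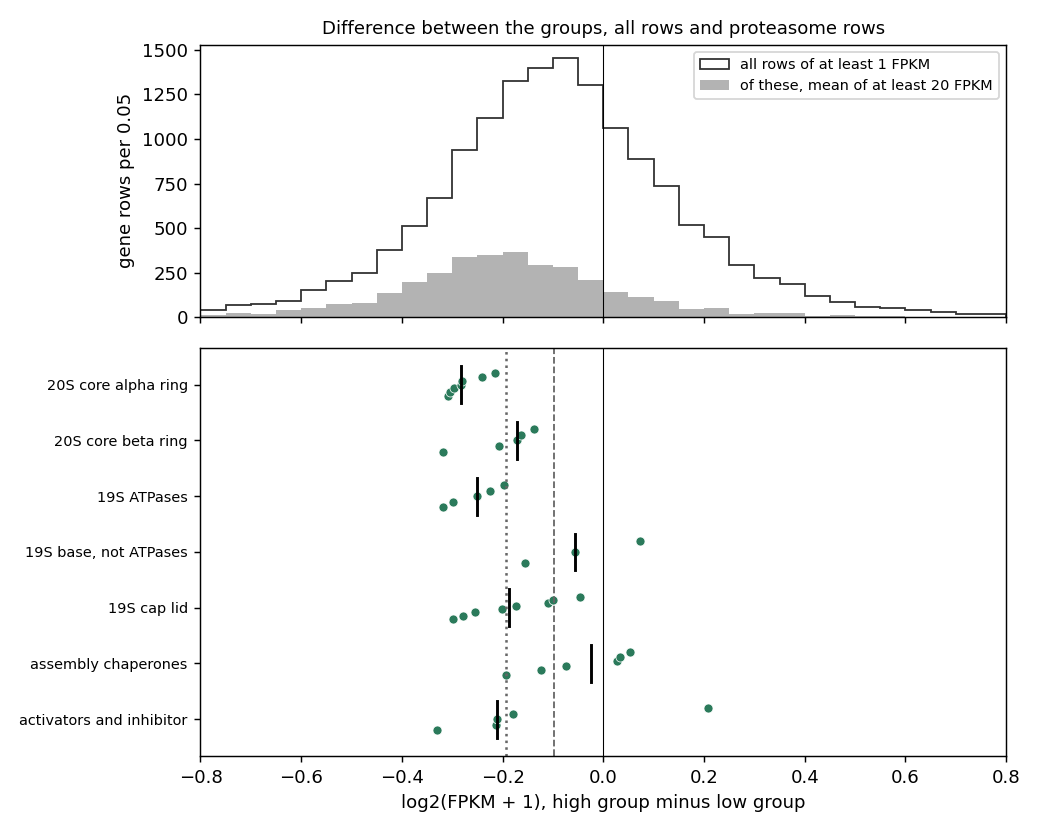
Difference between the groups in log2(FPKM + 1), high minus low. The upper panel counts all tested rows and those of at least 20 FPKM in steps of 0.05, with 547 rows outside the axis range not drawn. The lower panel shows each proteasome row as a point with the median of its role as a bar. The dashed line is the median of all tested rows (-0.10) and the dotted line that of the rows of at least 20 FPKM (-0.19). The alpha ring and the ATPases lie to the left of the dotted line or close to it. The chaperones, among them both rows of PSMD10, run from -0.19 to 0.05.

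Seen by role, the medians ran from -0.28 in the alpha ring and -0.25 in the ATPases to -0.02 in the assembly chaperones. The chaperone median counts both rows of PSMD10, and with 1 row per symbol it was -0.075, against -0.10 for all tested rows. Of the 31 proteasome rows whose mean reached 20 FPKM, 26 lay between the lower and the upper quartile of all rows at that level (-0.33 to -0.06), a range that holds the middle 50% of rows by construction. Only PSME2 was below this range and 4 rows were above it, PSMD1, PSMD2, PSMD3 and the row of PSMD10 on a scaffold. The proteasome rows were thus spread less widely than other rows of such levels, a description of these group values that was not tested.

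**Figure D3:**
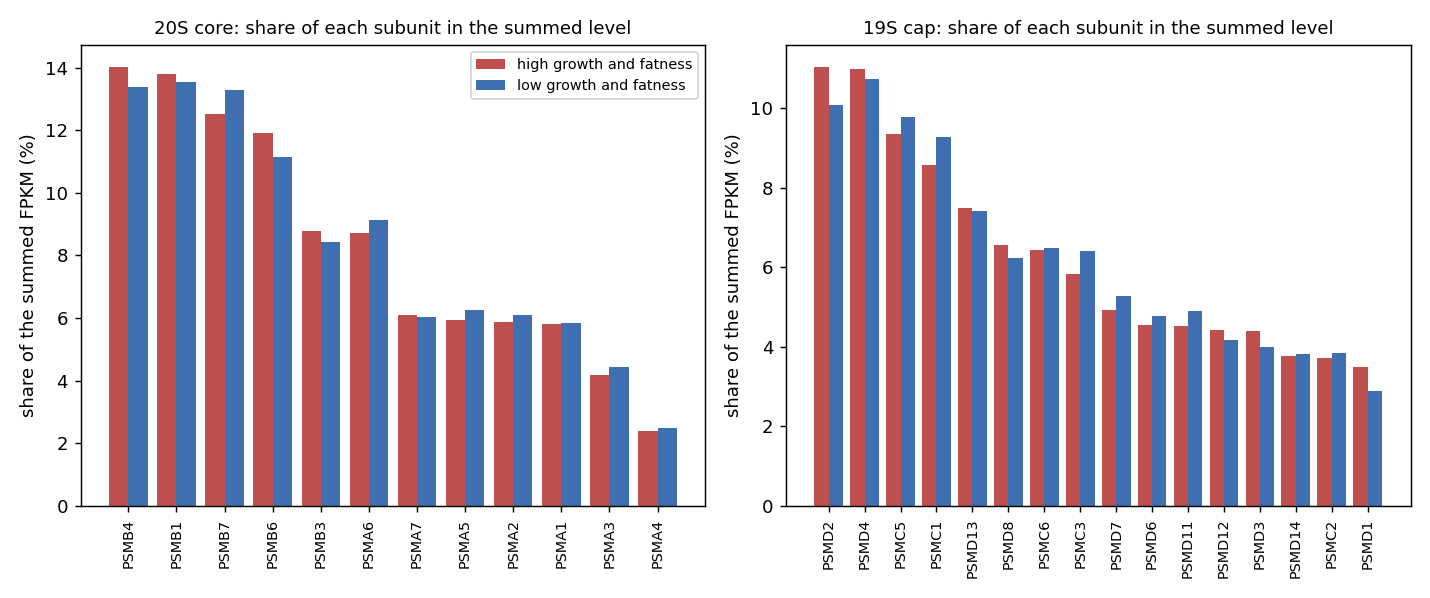
Share of each subunit in the summed FPKM of the tested 20S core subunits (left) and 19S cap subunits (right), in percent, for high-growth and low-growth pigs. Subunits are ordered by their share in high-growth pigs, and the paired bars differ by at most 0.765 percentage points in the core and 0.972 in the cap.

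The relative make-up of the complexes at the mRNA level was nearly the same in the groups. A share of a summed level does not depend on a scale factor common to all rows of a group. In the core, the summed level was 714 FPKM in high-growth pigs and 841 FPKM in low-growth pigs, and the largest shift in share was that of PSMB7, from 12.5% to 13.3%. PSMB6 moved the other way, from 11.9% to 11.2%. In the cap the sums were 698 and 796 FPKM, and the largest shift was that of PSMD2, from 11.04% in high-growth pigs to 10.1% in low-growth pigs. Across the 12 core subunits the log2 levels of the groups had a Pearson's r of 0.997, and across the 16 cap subunits 0.981. These are correlations across genes, and each gene has the same annotation and length in both groups.

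Within a group the subunits differed far more than between groups. The highest of the 12 core subunits exceeded the lowest by 5.62 times in mean FPKM. The highest of the 16 cap subunits exceeded the lowest by 3.43 times. Each complex nevertheless holds its subunits in equal numbers. Of 66 pairs of core subunits, 27 had separate intervals in both groups, as did 25 of 120 pairs of cap subunits. Neighbours in the order of levels overlapped throughout, in all 11 neighbouring pairs of the core and all 15 of the cap, so only distant ranks are resolved.

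**Figure D4:**
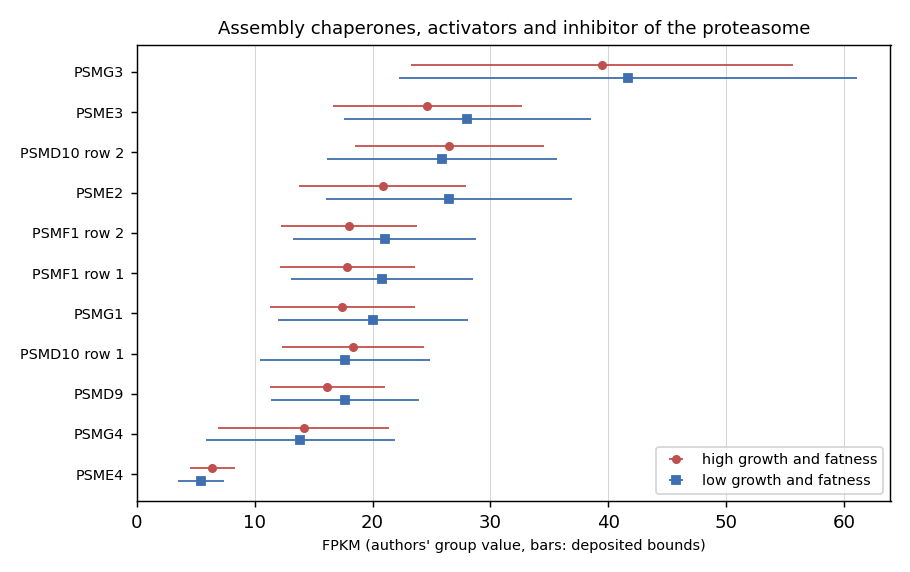
FPKM of the assembly chaperones, the activators and the inhibitor of the proteasome in high-growth and low-growth pigs, with the deposited bounds as bars. PSMD10 and PSMF1 have 2 rows each. PSME4 is the lowest, and the bounds of the groups overlap for every row.

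Of the 11 tested rows of accessory proteins, 7 were lower in high-growth pigs, or 63.6%, close to the 67.7% of all tested rows. The 4 higher rows were those of PSMG4, PSME4 and the pair of PSMD10. Levels were lower than in the core, with a median of 18.0 FPKM in high-growth pigs, and the rows had a median difference of -0.12, which became 0.0060 after quantile normalization, where 5 of the 11 were lower. The chaperones PSMG1, PSMG3 and PSMG4 help to build the alpha ring, and PSMD9 and PSMD10 the base of the cap. PSMG1 had the largest negative difference among them, -0.19, at 17.4 FPKM (11.3 to 23.6) in high-growth pigs and 20.1 FPKM (12.004 to 28.1) in low-growth pigs. PSMG3 had the highest level, at 39.5 FPKM (23.3 to 55.7) against 41.7 FPKM (22.2 to 61.1). PSMG4, the lowest of the chaperones named here, stood at 14.1 FPKM (6.85 to 21.4) against 13.9 FPKM (5.86 to 21.9). PSMD5, given among the other observations, was lower. PSMD9 was at 16.1 against 17.7 FPKM.

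PSMD10, also known as gankyrin, were higher in high-growth pigs in both of its rows. The row on chromosome X stood at 18.3 FPKM (12.3 to 24.4) against 17.7 FPKM (10.4 to 24.9), and the row on an unplaced scaffold at 26.5 against 25.9 FPKM. The row on chromosome X shares its locus with ATG4A. Reads of 1 gene may be split between such rows, so these levels are uncertain.

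The activators differed in sign. PSME2, a subunit of the interferon-inducible activator that opens the core without ATP, had the largest difference of all proteasome rows in the unscaled values, -0.33, at 20.9 FPKM (13.7 to 28.0) in high-growth pigs and 26.5 FPKM (16.1 to 36.9) in low-growth pigs. Of the rows of this class that fit the name pattern, PSME3, the related nuclear activator, had the highest level. It was at 24.7 FPKM (16.6 to 32.7) against 28.0 FPKM (17.6 to 38.5). PSME1, given among the other observations, was higher, at 50.4 against 57.8 FPKM. PSME4, a large nuclear activator that is not related in sequence, had the lowest level and the largest difference in the opposite direction, 0.21, at 6.38 FPKM (4.46 to 8.30) against 5.40 FPKM (3.44 to 7.35). After median-of-ratios scaling PSME4 had the larger difference of the activators, 0.30 against -0.23 for PSME2, and after quantile normalization 0.29 against -0.18. The inhibitor PSMF1 had a pair of rows on chromosome 17 with loci of 43973 and 43969 bases. They stood at 17.9 against 20.8 FPKM and at 18.0 against 21.0 FPKM. Values this close may come from the same reads, and PSMF1 is uncertain for that reason. In each of these genes the value of either group lay inside the interval of the other.

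The tested rows lay on 14 chromosomes and 4 unplaced scaffolds. On build Sscrofa10.2, counted from 1, PSMB7 (ENSSSCG00000005590) lies on chromosome 1 from 298943393 to 299006601 and PSMB6 (ENSSSCG00000017913) on chromosome 12 from 54317037 to 54319097. PSMC3 (ENSSSCG00000013239) lies on chromosome 2 from 16392123 to 16399908, and PSME4 (ENSSSCG00000008412) on chromosome 3 from 92361674 to 92489028. PSME2 (ENSSSCG00000002004) lies on chromosome 7 from 80425840 to 80429278. These spans are the loci of the deposited table, which can join overlapping genes, and each holds the whole gene, exons and introns.

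**Figure D5:**
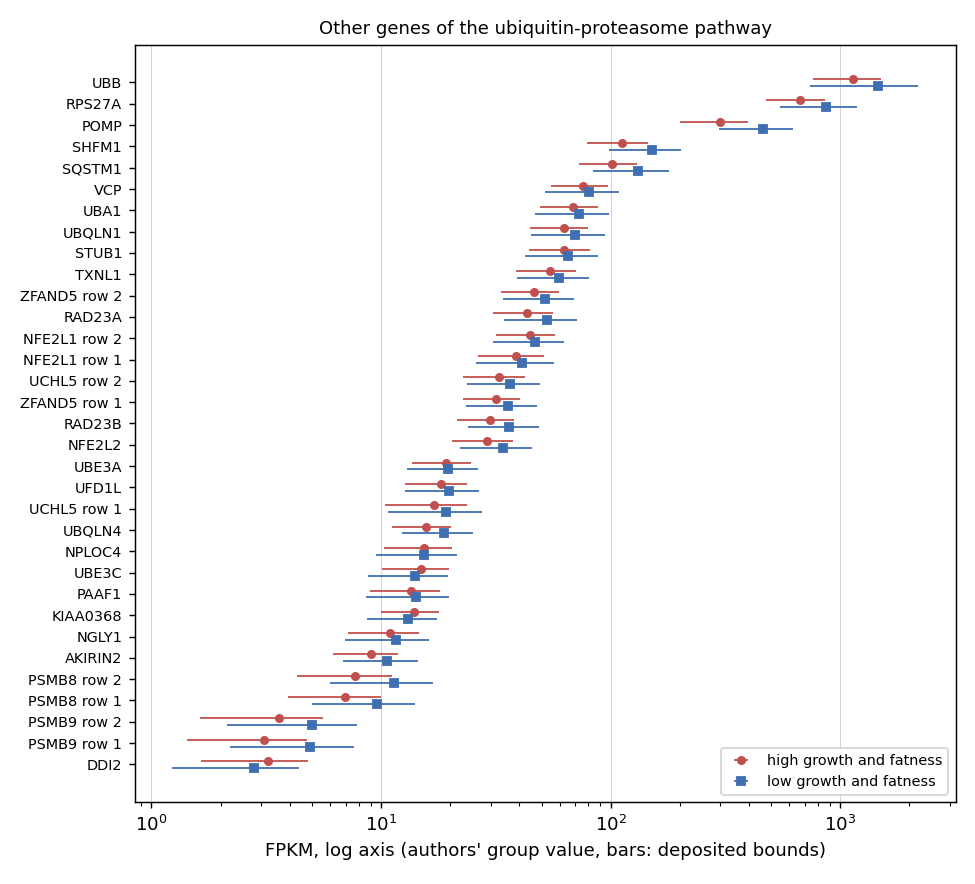
FPKM on a log axis of 33 rows of other ubiquitin-proteasome genes in high-growth and low-growth pigs, with the deposited bounds as bars. The ubiquitin gene UBB is the highest, at 1132 FPKM in high-growth pigs and 1463 FPKM in low-growth pigs, and bounds of the groups overlap for every row.

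Other genes of the ubiquitin-proteasome pathway were read from a list of 34 symbols, of which 28 had a row with an estimate, in 33 rows. Of these rows, 30 (90.9%) were lower in high-growth pigs and 3 higher, with a median difference of -0.16. Over all tested rows this share was 67.7%, and among those of at least 20 FPKM it was 82.3%. Without the rows of PSMB8 and PSMB9, 26 of 29 were lower, with a median of -0.15. Like that of the proteasome rows, the count of 30 depended on the scaling, with 21 lower after median-of-ratios scaling and 14 after quantile normalization. No row had separate intervals, against 0.462% of all tested rows. A ratio of 1.5 was reached by 2 rows, and by 9.22% of all tested rows. POMP, the maturation chaperone that guides assembly of the beta ring and is then degraded as the first substrate, was at 298 FPKM (201 to 395) in high-growth pigs and 461 FPKM (296 to 625) in low-growth pigs, a ratio of 1.55. The scalings lowered that ratio to 1.43 and 1.26, below the threshold. A difference of -0.63 placed POMP beyond all 39 proteasome rows. The other was a row of PSMB9, described among the further observations.

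RPS27A, which encodes ubiquitin fused to a ribosomal protein, stood at 665 FPKM in high-growth pigs against 866 FPKM in low-growth pigs, and turned to the other side after quantile normalization. The ubiquitin gene UBB was at 1132 FPKM (762 to 1501) in high-growth pigs and 1463 FPKM (741 to 2184) in low-growth pigs. SHFM1, which encodes the smallest lid subunit and is not covered by the name pattern, was at 112 against 151 FPKM, a difference of -0.42. Its level and its difference were larger than those of all 16 cap subunits that fit the pattern. NFE2L1, the transcription factor that raises proteasome genes when proteasome activity is low, had a pair of rows with nearly equal values in the groups, at 44.6 against 46.9 FPKM and at 38.8 against 41.2 FPKM, and with the sign reversed by both scalings. DDI2, the protease that activates NFE2L1, had the largest difference in the other direction, 0.15, at 3.22 FPKM (1.64 to 4.80) against 2.81 FPKM (1.23 to 4.38). The intervals of the groups overlapped in all of these genes.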

How the data were processed

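Hypothalamic RNA of 10 pigs was measured, 5 in each group. The authors deposited 1 FPKM value per gene row and group with confidence bounds, per the file headers; the level of confidence is not given in the sources used here. Per the submitters' processing notes, Cufflinks 2.0.2, TopHat2 2.0.5 with Bowtie2, and build Sscrofa10.2 were used, beside CASAVA, FastQC and Trim Galore. Their settings are not given there. Counts were not used, and sequencing depth per animal is unknown.

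From these values, differences of log2(FPKM + 1), FPKM ratios and overlap of the deposited bounds were computed with pandas 2.3.3 in Python 3.11.15, tested on simulated data. Of all rows, 58 lacked a valid estimate in at least 1 group. The 15281 rows whose mean reached 1 FPKM were tested, and ratios and overlap used the 15156 of them above 0 in both groups. A row counted as called at a ratio of 1.5 or with separate intervals. A z value used on these data before was not used, because it assumes the level of the bounds. Starts are stored from 0 (8 rows start at 0), so 1 was added.

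Members, roles, gene lists and the naming rule were chosen with earlier results of these data known. Every proteasome row is named. Bounds are printed for catalytic subunits, for the highest and lowest level and the largest differences of each role, and for separate intervals. Of the pathway list, genes past a ratio of 1.5, the ubiquitin genes UBB and RPS27A, NFE2L1 and the largest difference in each direction are named; SHFM1 was added after its values were seen, and some genes of the list are not reported here. Marker lists were neurons, hypothalamic peptide neurons, oligodendrocytes, astrocytes, microglia, endothelium, fibroblasts and mural cells, red blood cells, anterior pituitary and choroid plexus. Alternatives were other pseudocounts (0.1 and 0.5), filters, scalings and a lower fold (the larger value exceeding the smaller by 25%). Promoter motifs were not searched here.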

Additional observations from a re-analysis of the deposited data

How the results depend on the processing

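After median-of-ratios scaling the median differences were -0.15 for the 20S core, -0.092 for the 19S cap and -0.019 for the accessory proteins, and after quantile normalization they were -0.076, -0.033 and 0.0060. The median over the whole table went from -0.10 to -0.0054 and -0.0023. By construction, median-of-ratios scaling removes a shift that all rows share. Quantile normalization gives both groups the same distribution of values, so it also removes a shift that depends on the level of a row. The 34 of 39 rows higher in the low group became 30 and 22, and over all rows 67.7% became 51.0% and 50.5%. Median-of-ratios scaling lowered every ratio of low to high by the same factor, so its 30 rows had to be among the 34. The 22 rows were among the 34 as well. With the fold lowered from 1.5 to an excess of 25%, 2 rows were past it in place of 0. Other pseudocounts, no filter and a mean of at least 5 FPKM kept the medians of the core, the cap and the accessory proteins within 0.1. The count of rows higher in the low group stayed at 34, which these settings could not alter. It does not use the pseudocount, and a mean of 5 FPKM kept the same 39 rows. Rows added without a filter were at 0 in both groups or, for PSMC3IP, higher in the high group. A mean of at least 20 FPKM and 1 row per symbol, both chosen after seeing the data, kept the medians of the core, the cap and the accessory proteins within 0.1 too. They gave 29 of 31 and 33 of 37 rows higher in the low group, the former against 82.3% of all rows at 20 FPKM. At 20 FPKM fewer rows were tested, so 3 of 4 accessory rows were lower in the high group in place of 7 of 11, and 2 proteasome rows were higher there in place of 5. No proteasome row had separate intervals under any of these filters or scalings. No paired analysis was possible because the table gives 1 value per group, and leaving out single animals was not run for the same reason. The limits set by depth were not measured, as no counts were used.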

Other observations

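The immunoproteasome subunits PSMB8 and PSMB9, which replace constitutive catalytic subunits after interferon exposure and are abundant in immune cells, have a pair of rows each on chromosome 7 in this annotation. Reads may be split between near-identical copies, so their levels are uncertain. PSMB8 was at 6.96 FPKM (3.94 to 9.99) in high-growth pigs and 9.56 FPKM (5.02 to 14.1) in low-growth pigs in the first row, and at 7.71 against 11.4 FPKM in the second. PSMB9 was at 3.09 FPKM (1.43 to 4.74) against 4.92 FPKM (2.20 to 7.64), a ratio of 1.59 (1.48 after median-of-ratios scaling and 1.52 after quantile normalization), and at 3.60 against 4.98 FPKM. The differences of the 4 rows, -0.53 to -0.38, lay beyond those of all 39 constitutive and accessory rows, and all 4 pairs of intervals overlapped. Microglial markers were lower in high-growth pigs in 8 of 8 rows (305 against 431 FPKM summed), as were 67.7% of all tested rows. The part of these markers in the PSMB8 and PSMB9 values was not tested.

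For 2 further genes the proteasome symbol came only from a reference table of identifiers. PSME1, the partner of PSME2 in the interferon-inducible activator, was at 50.4 FPKM (33.7 to 67.1) in high-growth pigs and 57.8 FPKM (35.4 to 80.2) in low-growth pigs. PSMD5, a chaperone of the base, was at 9.81 FPKM (6.22 to 13.4) against 10.19 FPKM (5.89 to 14.5).

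Of the marker lists not described above, neurons (3 tested rows) had a median difference of -0.04, astrocytes (5) -0.10, endothelium (3) -0.20 and choroid plexus (5) -0.44. The 4 tested rows of anterior pituitary markers had a median difference of -1.24.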
